A study of Mus musculus with 6 samples.

Results

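The genes described here are 48 genes of DNA double-strand break repair and of the Fanconi anemia pathway. They were taken by gene symbol from a fixed list of 48 names, all of which had a row among the 16894 genes of the deposited table, and they were divided by role into 6 arms. The list goes by function and sets no limit on any measured value. The RNA came from fibroadipogenic progenitors (FAPs), mesenchymal cells of skeletal muscle that can become fibroblasts or adipocytes. They were sorted with magnetic beads as CD45-, CD31-, α7-integrin- and SCA-1+ cells from hindlimb muscle of C57BL/6 mice of both sexes, aged 3 to 6 months, and both groups were then grown with bFGF at 3% oxygen. Senescent FAPs (3 libraries) had been exposed in culture to etoposide at 20 μM for 48 h, and RNA was collected after another 5 days in drug-free medium, while the control FAPs (3 libraries) were non-senescent. How many mice went into a culture, and whether control cultures received the solvent of the drug, is not given in the sources used here.

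Etoposide traps topoisomerase II on cut DNA and so leaves double-strand breaks. A cell can rejoin such breaks directly, by end joining through the Ku proteins and DNA ligase IV. It can also copy the lost sequence from the sister chromatid by homologous recombination, which needs a replicated chromosome and therefore runs in S and G2 phase. Theta-mediated joining anneals short matching stretches with polymerase theta, and the Fanconi proteins clear crosslinks that block replication forks. Many recombination and Fanconi genes are known to be transcribed mainly in cycling cells.

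Each library had 41412179 to 59912520 reads on genes, so that 1 read was worth between 0.0167 and 0.0225 CPM, where CPM (counts per 1e6) is taken from the library size after edgeR scaling. Levels were compared with limma on log2(CPM + 0.5), and a gene was called lower or higher in senescent FAPs at a Benjamini-Hochberg adjusted p under 0.05 over the 14776 genes tested. For genes with few reads such a log2 fold change, given with its standard error (SE), is smaller than the change in CPM. Values of single libraries are given in the order of replicates 1, 2 and 3. All 48 repair genes passed the filter on low values. The FAP markers Pdgfra and Ly6a, which encodes SCA-1, had 126 to 254 CPM and 220.4 to 678 CPM over the 6 libraries. Of the 8 FAP markers, 3 were higher (Ly6a, log2 fold change 0.81, Dcn and Lum), 1 was lower (Col1a1, −2.29) and 4 were not called. Their sum in senescent libraries was 42.9% of the control mean. That mean was 27420 CPM, of which Col1a1 made up 15545 CPM and Col3a1 10041 CPM. Thy1 of this list had 489 and 615 CPM in replicate 1 of control and senescent FAPs and 41.3 to 73.6 CPM in the other libraries. The 4 leukocyte markers measured of 8 summed to 8.85 to 12.0 CPM in control and 21.1 to 26.0 CPM in senescent libraries. Of these, 3 were higher (Itgam, Cd68 and Cd53, or 75%, against 21.8% of all genes) and 1 was not called (Csf1r). Itgam was at 0 in control replicates 2 and 3 and at 0.516 to 0.837 CPM in senescent libraries. The endothelial markers summed to 19.2 to 39.5 CPM in control and 23.8 to 31.2 CPM in senescent libraries, and Itga7, the gene of the α7-integrin used to remove myogenic cells, had 9.17 to 12.3 and 15.7 to 23.6 CPM. The part of other cell types in the results was not tested. The 12 proliferation markers (Mki67, Top2a, Ccna2 and the like) were all lower in senescent FAPs, with a sum of 505 to 1187 CPM in control and 64.5 to 101 CPM in senescent libraries, and control replicate 2 was the highest library for each of the 12. In bulk RNA, fewer cells that express a gene and less of its RNA per cell cannot be told apart.

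Most of the repair genes had lower RNA levels in senescent than in control FAPs. Of the 48 genes, 30 were lower and 4 higher, and 14 were not called. Among all genes tested, 24.3% were lower and 21.8% higher, against 62.5% and 8.33% of the repair genes. The study, with edgeR, called genes repressed or activated at an unadjusted p under 0.01 with a log2 fold change past 1 in either direction. With this threshold on the limma results, 18 repair genes were repressed and 0 activated, while the background was 3.9% repressed and 6.93% activated. On recovered reads, edgeR gave 20 repressed repair genes and DESeq2 19, each with 0 activated. In 34 of the 48 genes each senescent library lay below each control library, and in 5 each lay above, compared with 30.9% and 26.5% of all genes. The median log2 fold change was −0.65 over the repair genes and −0.033 over all genes tested.

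The scaling between libraries bears on the genes with small changes. When values were divided by library totals alone, the median of all genes rose to 0.17 and that of the repair genes to −0.46, a distance of −0.62 as before. Of all 14776 genes tested, 1929 were then lower and 4992 higher, against 3592 and 3218 with the deposited scaling. The counts of repair genes were 27 lower and 8 higher, or 77.1% lower among those called, against 88.2% with the deposited scaling. The number of higher repair genes fell from 4 to 2 without control replicate 1, control replicate 3, senescent replicate 2 or senescent replicate 3. That of lower repair genes stayed between 26 and 30 over the 6 libraries left out in turn.

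**Figure D1:**
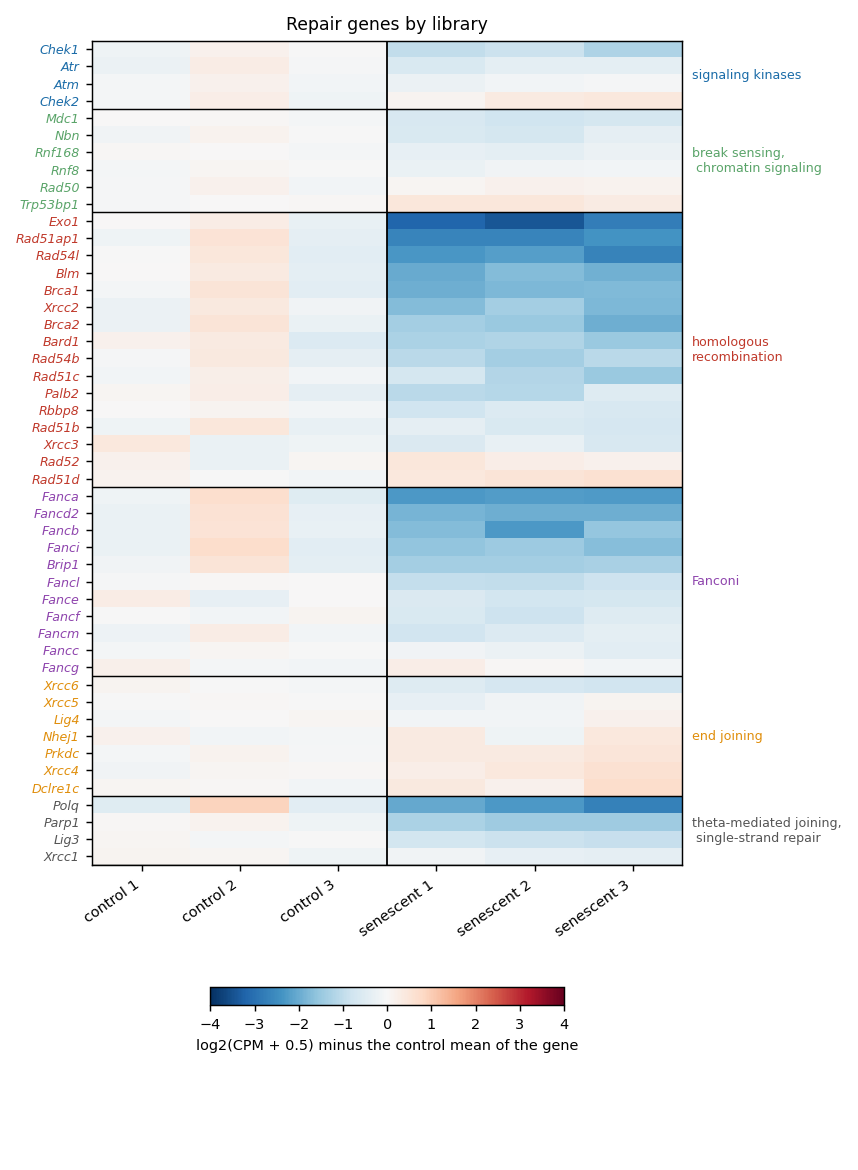
Level of each of the 48 repair genes (rows, by arm) in each of the 6 libraries (columns), as log2(CPM + 0.5) minus the mean of the gene in the 3 control libraries, where blue is lower and red higher. The deepest blue is in homologous recombination, Fanconi and Polq rows, and pale red cells of senescent libraries lie in end joining and in the rows of Chek2, Rad50, Trp53bp1, Rad51d and Rad52.

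Homologous recombination held the gene with the largest fall. Of its 16 genes, 12 were lower (75%, against 24.3% of all genes), 1 was higher (6.25%, against 21.8%) and 3 were not called. Their median log2 fold change was −1.25, with a range from −3.12 to 0.51. Exo1, which encodes an exonuclease that resects broken ends, fell the most of all 48 genes. It had 9.51, 11.7 and 7.63 CPM in the 3 control libraries against 0.596, 0.435 and 0.968 CPM in the 3 senescent libraries. The groups lay far apart, and the log2 fold change was −3.12 (SE 0.22, adjusted p = 1.61e-04). Exo1 lies on chromosome 1 from 175880581 to 175913489 (GENCODE M21 on GRCm38, the assembly also called mm10), and it was covered by 26 to 614 reads. Rad51ap1, whose product promotes strand pairing, had 6.96, 11.7 and 6.05 CPM in the 3 control libraries against 0.854, 0.853 and 1.10 CPM in the 3 senescent libraries. The log2 fold change was −2.55 (SE 0.24, adjusted p = 3.37e-04), and the groups were far apart. Rad54l, which encodes a DNA translocase of strand exchange, had 5.94, 8.35 and 4.38 CPM in the 3 control libraries against 0.794, 0.903 and 0.518 CPM in the 3 senescent libraries. This was a log2 fold change of −2.41 (SE 0.24, adjusted p = 4.02e-04), again with no overlap between groups. Rad54l shares 15.4% of its exon length with Lrrc41 on the opposite strand. Lrrc41 had 89.3 to 102 CPM in control and 84.8 to 91.6 CPM in senescent libraries.

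Brca1, Brca2 and the partner genes Bard1 and Palb2 were lower. The log2 fold change was −1.84 for Brca1 and −1.32 for its ubiquitin ligase partner Bard1 (adjusted p = 9.32e-04 and 0.00446). It was −1.61 for Brca2, a tumor suppressor gene of recombination, and −0.91 for Palb2, which bridges BRCA1 and BRCA2 (adjusted p = 0.00232 and 0.0175). Without senescent replicate 1 or 2 the adjusted p of Palb2 passed 0.05 and was at most 0.0695. The helicase gene Blm fell by 1.88 on the log2 scale and Rad54b by 1.18. Rad54b shares 35.8% of its exon length with Fsbp on the same strand, so reads there cannot be assigned to either gene, and Fsbp had 1.81 to 2.88 CPM in control and 0.563 to 0.973 CPM in senescent libraries. Rbbp8, which encodes the resection factor CtIP, fell less, by 0.65.

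The genes Rad51b, Rad51c, Rad51d, Xrcc2 and Xrcc3, whose products form small complexes that assist strand exchange, did not move as 1 group. Xrcc2 and Rad51c were lower, with log2 fold changes of −1.63 and −1.11 (adjusted p = 9.21e-04 and 0.00657). Rad51b (−0.55, 95% interval −1.08 to −0.018) and Xrcc3 (−0.50, −1.01 to 0.0041) were not called. Rad51d was higher, with 11.6, 10.4 and 9.59 CPM in the 3 control libraries against 14.1, 15.1 and 16.4 CPM in the 3 senescent libraries. Each senescent library was above each control library of Rad51d, and the log2 fold change was 0.51 (SE 0.12, adjusted p = 0.00973). Rad51c and Rad51b rested on few reads, 10 to 98 and 23 to 92, and Rad51d on 518 to 904. Rad52, whose product anneals single strands, had a log2 fold change of 0.30 with an interval of −0.075 to 0.67, and its groups overlapped.

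The Fanconi genes fell beside those of recombination. Of 11 genes, 9 were lower (81.8%, against 24.3% of all genes), 0 higher and 2 not called, with a median of −0.92. Fanca, a subunit of the core complex that ubiquitinates the FANCD2 and FANCI clamp, had 12.5, 22.8 and 10.1 CPM in the 3 control libraries against 2.52, 2.66 and 2.57 CPM in the 3 senescent libraries. The 3 senescent libraries were close together while control replicate 2 was well above the other two, and the log2 fold change was −2.26 (SE 0.27, adjusted p = 7.45e-04). Fancd2, which encodes the clamp itself, had 6.67, 12.3 and 6.28 CPM in the 3 control libraries against 1.87, 1.72 and 1.69 CPM in the 3 senescent libraries. Its log2 fold change was −1.92 (SE 0.25, adjusted p = 9.52e-04), and that of its partner Fanci was −1.58 (SE 0.29, adjusted p = 0.00384). Fanci shares 16% of its exon length with Polg on the opposite strand, a gene with 72.7 to 79.0 CPM in control and 46.5 to 53 CPM in senescent libraries, and whether counting used strand is not given in the sources used here. Fancb, an X-linked core subunit, had 4.42, 8.12 and 4.34 CPM in the 3 control libraries against 1.27, 0.703 and 1.53 CPM in the 3 senescent libraries. Senescent libraries were all below control libraries, with a log2 fold change of −1.86 (SE 0.29, adjusted p = 0.00200).

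Core subunits did not share 1 size of change. Fancl, the ubiquitin ligase of the complex, had a log2 fold change of −0.92, Fance of −0.68, Fancf of −0.65 and the translocase gene Fancm of −0.57, all called lower. The call of Fancm was lost without senescent replicate 1 or 2, with an adjusted p of at most 0.0729, and with library totals alone. Fancc (−0.27, 95% interval −0.54 to −0.0014) and Fancg (0.065, −0.29 to 0.42) were not called. Brip1, which encodes a helicase partner of BRCA1, was lower by 1.34 on the log2 scale (adjusted p = 0.00318).

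Among control libraries, replicate 2 was high for both arms and for the proliferation markers. Control replicate 2 was the highest control library for 13 of the 16 recombination genes and 8 of the 11 Fanconi genes. It was so for 3 of 7 end-joining genes, for 34 of the 48 repair genes and for 5751 of the 14776 genes tested. Summed CPM of the recombination genes was 119, 145 and 99.6 in control libraries and 56.9, 60.8 and 59.0 in senescent libraries, while the proliferation markers had 587, 1187 and 505 and then 101, 68.1 and 64.5. Sums follow their most abundant genes. Of the recombination mean of 121 CPM in control and 58.9 CPM in senescent libraries, Rbbp8 made up 28.0 and 17.6 CPM. Rad51d made up 10.5 and 15.2 CPM and Rad52 6.07 and 7.53 CPM, while Exo1 made up 9.60 and 0.666 CPM. The 12 markers fell to 10.3% of the control mean and the recombination and Fanconi sums to 48.6% and 51.2%. The part of proliferation in these falls was not tested. Without control replicate 2, 30 repair genes were lower and 5 higher, but Atr lost its call while Xrcc3 (lower) and Chek2 (higher) gained one.

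**Figure D2:**
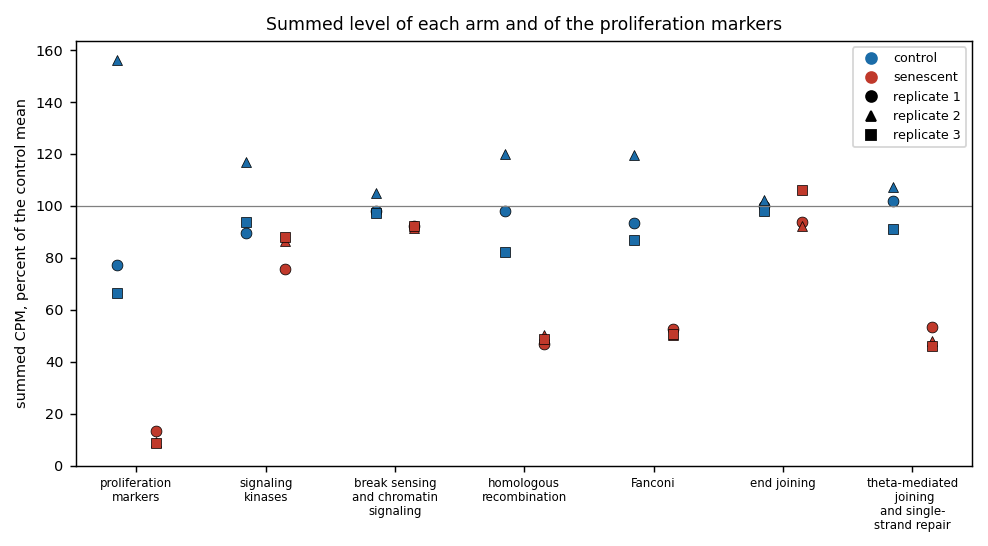
Summed CPM of the 12 proliferation markers and of each arm in each library, as a percentage of the mean of the 3 control libraries (vertical axis from 0), with control libraries in blue, senescent libraries in red and the replicate as the shape. Senescent sums lie well below control for recombination (47.0% to 50.2%), Fanconi (50.2% to 52.6%) and the theta and single-strand arm (45.8% to 53.3%), while those of end joining (92.1% to 106%) overlap the control libraries. In the theta and single-strand arm, Parp1 and Lig3 make up 68.0 and 61.0 CPM of the control mean of 162 CPM, and Polq 11.5 CPM.

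Classical end joining had calls in both directions. Of its 7 genes, 2 were higher (28.6%, against 21.8% of all genes), 1 was lower (14.3%, against 24.3%) and 4 were not called, and the median log2 fold change was 0.20. Xrcc4, the scaffold of DNA ligase IV, had 5.80, 6.85 and 6.68 CPM in the 3 control libraries against 7.78, 8.78 and 9.97 CPM in the 3 senescent libraries. Each senescent library was above each control library, and the log2 fold change was 0.43 (SE 0.14, adjusted p = 0.0384). Dclre1c encodes Artemis, a nuclease that opens hairpin ends, and had 5.02, 4.96 and 4.33 CPM in the 3 control libraries against 6.45, 5.39 and 8.15 CPM in the 3 senescent libraries. Its groups were also fully apart, but the log2 fold change of 0.43 missed the threshold in limma (adjusted p = 0.0740). Prkdc, which encodes the kinase DNA-PKcs that Ku recruits to ends, was higher, with a log2 fold change of 0.39 (SE 0.10, adjusted p = 0.0183). The calls of Xrcc4 and Prkdc were each lost without control replicate 1, control replicate 3, senescent replicate 2 or senescent replicate 3, with adjusted p up to 0.127 and 0.0678. Xrcc6, which encodes Ku70, went the other way, with 29.9, 27.6 and 26.4 CPM in the 3 control libraries against 19.4, 17.2 and 16.3 CPM in the 3 senescent libraries. The groups did not overlap and the log2 fold change was −0.65 (SE 0.10, adjusted p = 0.00203).

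The 3 remaining genes of end joining had intervals on both sides of 0. Lig4, which encodes the ligase, had a log2 fold change of −0.015 (95% interval −0.28 to 0.25), so a fall as large as the recombination median lay outside its interval. Xrcc5, which encodes Ku80, had −0.12 (−0.42 to 0.18), and Nhej1, the gene of the XLF factor, 0.20 (−0.25 to 0.66). With library totals alone, Lig4 and Xrcc5 took the opposite sign (0.19 and 0.088), and neither was called.

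Of the 4 genes of theta-mediated joining and single-strand repair, 3 were lower (75%, against 24.3% of all genes) and 1 was not called. Polq, which encodes polymerase theta, had 7.28, 19.5 and 7.65 CPM in the 3 control libraries against 2.10, 1.69 and 1.17 CPM in the 3 senescent libraries. Control replicate 2 was more than 2 times the other control libraries, and senescent libraries were all below them, with a log2 fold change of −2.35 (SE 0.37, adjusted p = 0.00210). Parp1, the sensor that marks nicks and breaks with poly(ADP-ribose), had 69.8, 74.3 and 59.8 CPM in the 3 control libraries against 28.1, 24.9 and 24.8 CPM in the 3 senescent libraries. Its control libraries lay close together, and the log2 fold change was −1.37 (SE 0.10, adjusted p = 1.79e-04). Lig3, whose ligase seals ends in this pathway and in single-strand repair, had 64.6, 57.5 and 60.9 CPM in the 3 control libraries against 36.7, 33.5 and 31.7 CPM in the 3 senescent libraries. This was a log2 fold change of −0.84 (SE 0.086, adjusted p = 4.19e-04). Its exons share 25.1% of their length with Rffl on the opposite strand, which had 3.14 to 4.34 CPM in control and 4.57 to 5.02 CPM in senescent libraries. Xrcc1, the scaffold of LIG3, had −0.28 (−0.55 to −0.012) and was not called (adjusted p = 0.0812), but it was with the replicate number as a block (adjusted p = 0.0465).

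Among the signaling kinases, the S-phase branch fell and the other branch was not called. ATR and its effector CHK1 respond to single-stranded DNA at forks, and ATM and CHK2 to double-strand breaks. Chek1 had 6.00, 7.83 and 6.84 CPM in the 3 control libraries against 3.26, 3.6 and 2.61 CPM in the 3 senescent libraries. The senescent libraries were all lower, with a log2 fold change of −1.02 (SE 0.16, adjusted p = 0.00242). Atr had 17.4, 25.5 and 20.0 CPM in the 3 control libraries against 13.4, 15.6 and 15.8 CPM in the 3 senescent libraries, a log2 fold change of −0.46 (SE 0.15, adjusted p = 0.0385). This call was lost in each leave-one-out setting other than the one without control replicate 1, and with library totals alone or quantile normalization. Chek2 had 7.30, 9.43 and 6.91 CPM in the 3 control libraries against 8.44, 10.1 and 10.7 CPM in the 3 senescent libraries, and its groups overlapped (log2 fold change 0.30, 95% interval −0.070 to 0.66). Atm had −0.12 (−0.38 to 0.13), and 0.085 with library totals alone. The differences between the 4 kinases were not tested.

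Genes that sense breaks and mark the chromatin around them moved in both directions. Of 6 genes, 3 were lower (50%, against 24.3% of all genes), 1 was higher (16.7%, against 21.8%) and 2 were not called. Mdc1, the adaptor that binds phosphorylated histone H2AX, had 49.3, 50.6 and 46.1 CPM in the 3 control libraries against 31.1, 27.9 and 29.5 CPM in the 3 senescent libraries. The groups were well separated, with a log2 fold change of −0.71 (SE 0.081, adjusted p = 6.01e-04). Nbn encodes the NBS1 subunit that brings ATM to breaks, and had 21.9, 26.6 and 23.6 CPM in the 3 control libraries against 15.4, 14.4 and 18.4 CPM in the 3 senescent libraries. Its log2 fold change was −0.57 (SE 0.12, adjusted p = 0.00842). Trp53bp1 encodes 53BP1, which protects ends from resection and favors end joining, and it was the member of this arm that was higher. It had 46.3, 47.7 and 48.6 CPM in the 3 control libraries against 65.5, 65.9 and 59.4 CPM in the 3 senescent libraries, a log2 fold change of 0.42 (SE 0.074, adjusted p = 0.00353) with groups fully apart. This call and that of Rad51d held with each library left out (adjusted p at most 0.0233 and 0.0423). Trp53bp1 shares 15% of its exon length with Tubgcp4 on the opposite strand, which had 34.2 to 40.2 CPM in control and 29.7 to 36.9 CPM in senescent libraries. The ubiquitin ligase genes Rnf168 and Rnf8 had log2 fold changes of −0.31 (adjusted p = 0.0266) and −0.17 (adjusted p = 0.186). Rnf8 shares 13.2% of its exon length with Gm28043 on the same strand. Gm28043 had 72.0 to 84.1 CPM in control and 84.3 to 102 CPM in senescent libraries. The call of Rnf168 was lost without control replicate 1 or 3 or senescent replicate 1 or 2, with an adjusted p of at most 0.107, and with library totals alone, where Rnf8 had 0.040. Rad50, which encodes the ATPase of the same complex as NBS1, had 0.13 (−0.092 to 0.35).

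**Figure D3:**
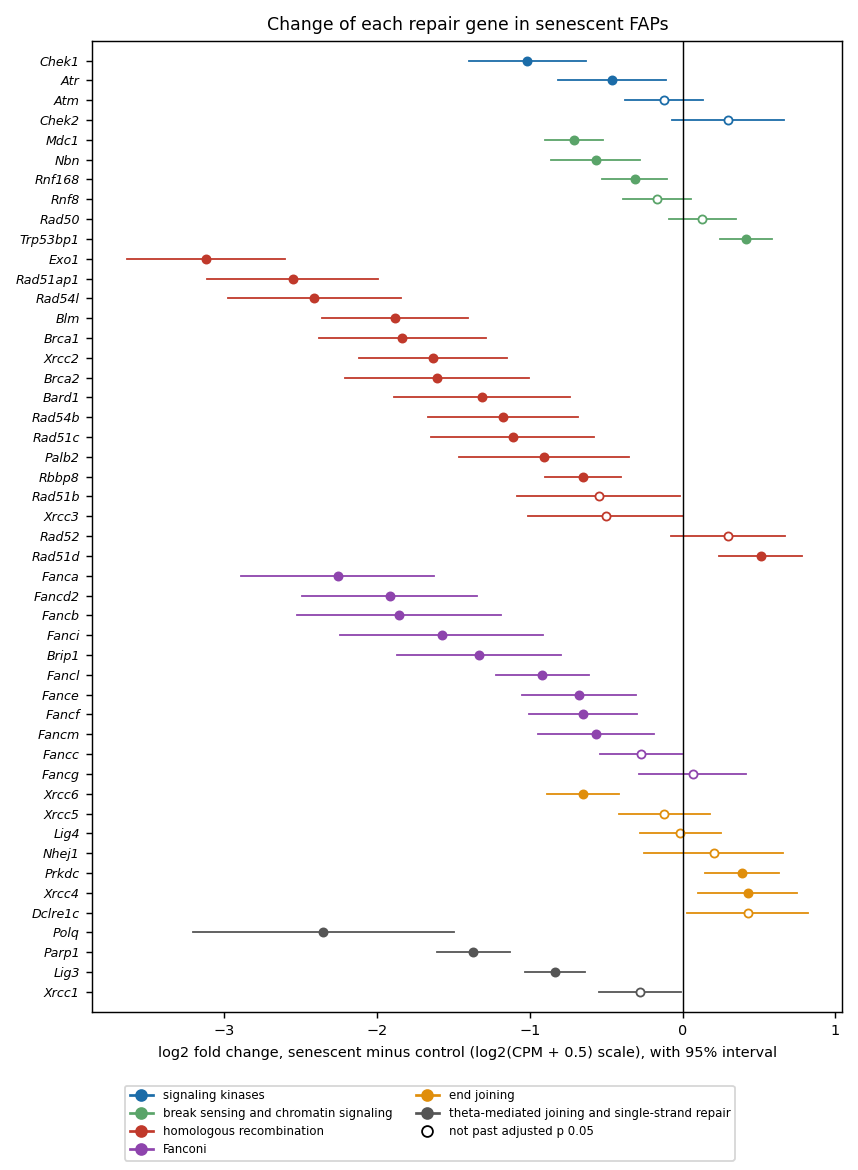
Log2 fold change of each repair gene in senescent against control FAPs (points) with its 95% interval from limma (lines), ordered within each arm. Filled points passed an adjusted p of 0.05 (30 to the left of 0 and 4 to the right), and open points (14 genes) did not.

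Several of these proteins work as fixed partners, so the RNA of partners was also compared within each library, where scaling between libraries cancels. A log2 ratio of CPM depends on transcript lengths and says nothing about which gene is more abundant, but its shift between groups shows whether partners changed unequally. For 5 of 7 pairs the ratios of the groups did not overlap. Ratios of other gene pairs were not computed, so the share of such pairs over all genes is not known. Of single genes, 30.9% lay fully apart as lower and 26.5% as higher. The two-sided exact permutation p for the 5 pairs was 0.1, the smallest that 3 libraries against 3 allow. It was 0.14 after Benjamini-Hochberg adjustment over the 7 pairs. As the pairs were chosen after values were seen, these p values give no independent support for unequal changes. The ratio of Nbn to Rad50 was −0.34, −0.28 and −0.18 in control against −0.98, −1.17 and −0.78 in senescent libraries, a shift of −0.71. That of Lig4 to Xrcc4 was 1.36, 1.24 and 1.32 in control against 0.93, 0.74 and 0.84 in senescent libraries, and it shifted by −0.47 with little spread in either group. The ratio of Lig3 to Xrcc1 shifted by −0.56, that of Xrcc6 to Xrcc5 by −0.55 and that of Fancd2 to Fanci by −0.40. For the Ku pair the senescent libraries were widely spread, from −0.21 to 0.51. Brca1 to Bard1 and Brca2 to Palb2 overlapped between groups, with shifts of −0.35 (exact permutation p = 0.2) and −0.71 (exact permutation p = 0.3). The test takes the groups as unpaired. No label pairs same-numbered libraries, and no paired test of the ratios was run. The ratio of Brca1 to Bard1 was 1.35, 1.75 and 1.82 in control against 1.10, 1.17 and 1.60 in senescent libraries. Between same-numbered libraries it was lower in the senescent library in 3 of 3 pairs. For Brca2 to Palb2 it was lower in 2 of 3.

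**Figure D4:**
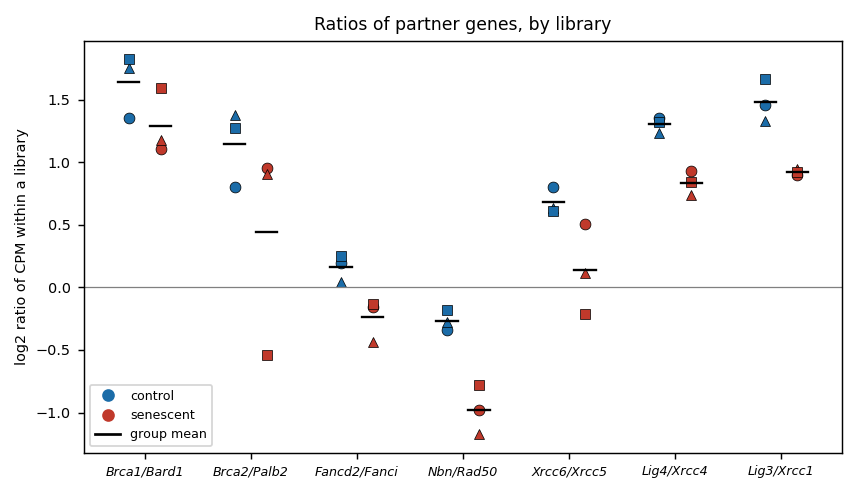
Log2 ratio of CPM of 7 pairs of partner genes within each library (vertical axis), with control libraries in blue, senescent libraries in red and group means as bars. The Nbn/Rad50 ratios run from −0.34 to −0.18 in control and from −1.17 to −0.78 in senescent libraries, and the 2 pairs on the left overlap.

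Levels can be set between genes only per length, here as CPM per kilobase of all annotated exons (GENCODE M21), which does not account for the isoform in use. In control FAPs Parp1 was highest, at 12.8 ± 1.4 CPM per kilobase (SD, n = 3). Nbn (9.49 ± 0.94) and Lig3 (8.37 ± 0.48) followed and did not differ beyond their spread. The lowest were Rad51c (0.350 ± 0.065) and Rad51b (0.314 ± 0.13), whose ranges overlapped. In senescent FAPs the order at the top was Nbn (6.35 ± 0.83), Xrcc5 (6.31 ± 1.0) and Rad50 (5.86 ± 0.18), which lay within each other's spread, and Parp1 was at 4.90 ± 0.35. Exo1 went from place 33 of 48 to place 48, at 0.0791 ± 0.032, with Rad54l at 0.0958 ± 0.026 and Rad51c at 0.105 ± 0.061 next to it and within its spread. Dclre1c went from place 45 to place 27.

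Promoter sequences were read for the 39 repair genes that have one among the RefSeq sequences used (GRCm38.p6, 43 windows of 250 bases before to 50 bases after a start site). The genes without one were Nbn, Rad50, Rad51d, Rad54b, Xrcc2, Exo1, Rbbp8, Fancd2 and Prkdc. E2F factors drive many S-phase genes through the element spelled TTTGGCGC, TTTCCCGC, TTTGCCGC or TTTCGCGC. One of these words stood on either strand in 8 of 43 windows (18.6%), against 3.65% of the windows of genes in the deposited table and 2.26% of all 32851 windows. Windows of genes called lower held it in 6 of 26 cases (23.1%) and the other windows in 2 of 17 (11.8%). No word is part of another. These counts are descriptions of letters, and binding was not measured. The stretches below show the E2F word in capitals with 16 bases on each side, 5′ to 3′ along the gene, for each of the 7 genes with one (the other window of Rad51c is left out), first the 5 called lower and then the 2 not called.
Brca2, chr5:150522437-150522476 (plus strand): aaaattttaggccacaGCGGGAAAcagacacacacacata
Bard1, chr1:71103158-71103197 (minus strand): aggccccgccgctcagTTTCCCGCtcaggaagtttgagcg
Rad51c, chr11:87404936-87404975 (minus strand): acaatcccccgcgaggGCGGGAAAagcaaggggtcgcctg
Mdc1, chr17:35841466-35841505 (plus strand): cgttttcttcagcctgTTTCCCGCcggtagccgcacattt
Xrcc6, chr15:82016307-82016346 (plus strand): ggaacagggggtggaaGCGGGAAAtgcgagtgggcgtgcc
Fancg, chr4:43010330-43010369 (minus strand): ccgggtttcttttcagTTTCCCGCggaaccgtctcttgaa
Chek2, chr5:110839815-110839854 (plus strand): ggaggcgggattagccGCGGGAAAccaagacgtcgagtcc

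The word was TTTCCCGC in each stretch shown, on the strand of the gene in Bard1, Mdc1 and Fancg and on the other strand in Brca2, Rad51c, Xrcc6 and Chek2. Its first base, counted from the start site, lay at −168 in Brca2, −209 in Bard1, −5 in Rad51c, −16 in Mdc1, −46 in Xrcc6, −52 in Fancg and −152 in Chek2. Chek2 and Fancg, which hold it, had log2 fold changes of 0.30 and 0.065, while Brca2 and Bard1 had −1.61 and −1.32. The Rad51c window left out held TTTCGCGC instead, on the strand of the gene, with its first base at 11, after the start site. The CCAAT box, the site of the factor NF-Y, stood in 24 of 43 windows (55.8%), against 37.1% of the windows of genes in the table, and the cell cycle element TTTGAA in 4 of 43 (9.30%) against 12.0%.

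The 250 bases before the start site are shown for the gene with the largest fall that has a promoter there (Rad51ap1), the one with the largest positive log2 fold change (Dclre1c, not called) and the recombination gene nearest to 0 among those not called with a promoter there (Rad52), with the letters CCAAT, or ATTGG where the box is on the other strand, in capitals.
Rad51ap1, chr6:126939588-126939837 (minus strand): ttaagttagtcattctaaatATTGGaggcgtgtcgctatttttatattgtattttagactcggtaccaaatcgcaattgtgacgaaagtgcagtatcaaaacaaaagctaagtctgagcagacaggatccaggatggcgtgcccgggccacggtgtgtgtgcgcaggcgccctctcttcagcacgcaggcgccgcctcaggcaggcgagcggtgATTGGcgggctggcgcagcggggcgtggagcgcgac
Dclre1c, chr2:3423881-3424130 (plus strand): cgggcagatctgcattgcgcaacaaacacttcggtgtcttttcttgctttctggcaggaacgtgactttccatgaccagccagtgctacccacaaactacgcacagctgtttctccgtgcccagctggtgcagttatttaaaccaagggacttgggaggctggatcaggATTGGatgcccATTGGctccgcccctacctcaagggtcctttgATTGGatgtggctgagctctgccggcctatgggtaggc
Rad52, chr6:119902448-119902697 (plus strand): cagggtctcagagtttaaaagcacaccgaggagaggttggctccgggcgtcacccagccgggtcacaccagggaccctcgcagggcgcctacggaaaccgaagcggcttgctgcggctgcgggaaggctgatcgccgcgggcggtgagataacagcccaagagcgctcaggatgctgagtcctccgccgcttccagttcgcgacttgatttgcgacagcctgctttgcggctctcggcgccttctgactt

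Rad51ap1 held 2 CCAAT boxes in this stretch, Dclre1c 3 and Rad52 0, and none of the 3 held an E2F word as spelled above.

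Another 72 measured genes of the same pathways, from lists set beside the 48, were counted in the same way. Of 71 tested, 32 were lower (45.1%, against 24.3% of all genes) and 4 higher (5.63%, against 21.8%), and their median log2 fold change was −0.33. Rmi2, the gene that did not pass the filter, had 0.395 to 0.875 CPM in control and 0.0225 to 0.0993 CPM in senescent libraries. Checkpoint clamp and mediator genes were lower in 8 of 10 cases, led by Clspn (−2.68), whose product claspin brings CHK1 to ATR, and Timeless (−1.10), a fork protection gene. Of the 3 subunits of the single-strand binding protein RPA, 2 were lower, with Rpa2 at −1.34 and Rpa3 at −0.39. Recombination accessory genes were lower in 6 and higher in 1 of 12, with Fignl1 at −2.56 and Mcm8, a helicase gene, at −1.44. Of 9 genes that dissolve or cut recombination junctions, 4 were lower and 1 higher, and the nuclease genes Eme1 and Gen1 had −1.83 and −1.46.

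The lists of partner genes ranged widely in their counts. Of 11 Fanconi accessory genes, 3 were lower (27.3%, against 24.3% of all genes) and 8 were not called. The 3 included Usp1 (−1.32), which removes ubiquitin from the clamp, and Ube2t (−1.08), which helps to attach it. Of 6 partners of 53BP1, 4 were lower and 0 higher, with Paxip1 at −0.89 and Rif1 at −0.82. The BRCA1-A and BRISC genes held 0 lower and 1 higher of 6 (16.7%, against 21.8% of all genes). The higher gene was Bre, with a log2 fold change of 0.33. Of 7 further end-joining and end-processing genes, 1 was lower (14.3%, against 24.3% of all genes) and 6 were not called, with a range from −0.47 to 0.12. The lower gene was Tdp1 (−0.47), whose product frees ends of trapped topoisomerase I. Further single-strand repair genes were lower in 4 (57.1%) and higher in 1 (14.3%) of 7, with the ligase gene Lig1 at −2.04 and the flap nuclease gene Fen1 at −1.33.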

How the data were processed

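RNA-seq libraries of 3 control and 3 senescent FAP cultures were analysed. The authors prepared them with a stranded mRNA kit, made a table of gene counts with edgeR scaling and deposited it as a signal, CPM of the effective library size (edgeR 3.10, R 3.6.0 and mm10, per the submitters' processing notes). The aligner, counter and low-count filter are not given in the sources used here. Values were whole multiples of the value of 1 read (tolerance 0.001, or 1e-05 of larger values) for 100% of entries, so reads were recovered. A line that names no gene held 0.0041% to 0.0070% of reads and was left out.

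Genes that reached 0.5 CPM in 3 or more libraries entered limma 3.58.1 (R 4.3.3) as log2(CPM + 0.5), trend on, two-sided, with Benjamini-Hochberg adjustment over all genes tested. Alternatives, with edgeR 4.0.16 and DESeq2 1.42.0 on recovered reads among them, are given in the closing section. Same-numbered libraries deviated together from their group means (correlations 0.54, 0.31 and 0.21 for numbers 1, 2 and 3 over all genes tested). Control 2 with senescent 3 had 0.15, and the other unmatched libraries had −0.36 to −0.028. The numbers may therefore pair the libraries, which no label states. The main fit and the permutation test took the groups as unpaired, and the replicate block is given in the closing section. As no label says that replicates came from separate animals, p values measure the spread between these libraries. Members and lists were chosen with earlier results of these data known, and partner pairs, motif words and printed E2F stretches were chosen after values were seen. Within each arm, values per library are printed for the 3 genes with the largest changes and for genes called against most of their arm, and of other lists at most the 2 called genes with the largest changes are named. Missing symbols were looked up among RefSeq synonyms. The tests were first tried on simulated data.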

Additional observations from a re-analysis of the deposited data

How the results depend on the processing

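Each result was recomputed with other pseudocounts (0.1 and 1), without a filter, with a filter at 2 CPM, with median-of-ratios scaling, library totals alone, quantile normalization, each library left out, the replicate number as a block, edgeR's quasi-likelihood test and DESeq2. The number of lower repair genes was 26 to 31 over these 16 settings (30 as reported, 30 with edgeR, 30 with DESeq2). The replicate block gave 31 lower and 4 higher genes and changed no call but that of Xrcc1. Higher repair genes numbered 8 with library totals alone, where 4992 of all 14776 genes tested were higher, and 2 to 5 with a library left out. The median log2 fold change of the repair genes was −0.46 with library totals alone. Of 766 recomputed log2 fold changes of the 48 genes, 12 changed sign, in 5 genes that were not called in either setting. With library totals alone these were Atm (0.085), Rnf8 (0.040), Xrcc5 (0.088) and Lig4 (0.19). Lig4 also had 0.0022 with median-of-ratios scaling, 0.032 with quantile normalization, 0.013 with edgeR, 0.024 with DESeq2 and −0.10 to 0.033 with a library left out (above 0 without control replicate 3, senescent replicate 1 or senescent replicate 2), and Fancg −0.035 to 0.16 (below 0 without senescent replicate 1). Another 25 lost their call and 10 gained one. The causes were not tested. Depth limits Rad51c, Rad51b, Rad54l and Exo1, which had under 30 reads in at least 1 library.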
